A study of Homo sapiens with 8 samples.

Results

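The RNA of HL-60 cells treated with decitabine alone was set directly against that of cells treated with RG3039 alone. HL-60 is a human promyelocytic leukaemia cell line, and all groups were the unedited, wild-type line. The comparison uses 4 of the study's 8 libraries, 2 for each drug, and the 17534 of 60240 listed genes that had a mean normalised value of at least 10 over the 8 libraries. Decitabine was given at 100 nM on 3 consecutive days, and RG3039 at 2 µM only at the start, so the treatments differ in drug, dose and number of additions. The other 4 libraries are 2 of cells given the solvent DMSO and 2 of cells given both drugs on these schedules, called the combination here. RNA was taken at 72 h from wells seeded in duplicate, and the labels name no separate cultures beyond these wells. P-values therefore measure the spread between these wells, which may be technical. Just inside the threshold on the mean lay CTF1, with a mean of 10.002, and just outside it AC093766.1, with a mean of 9.997.

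Decitabine is a cytosine nucleoside analogue. Once incorporated during replication it traps DNA methyltransferases, so that methylation is lost as cells divide. Genes of the germline, many of them on the X chromosome, are kept silent by promoter methylation in most somatic cells and are known to be re-expressed after such drugs. RG3039 is a quinazoline inhibitor of DcpS, the scavenger enzyme that hydrolyses the cap left over when an mRNA has been degraded from its 3′ end. A promyelocyte is the granulocyte precursor that makes azurophil granules. Products of later stages include secondary granule proteins, S100A8 and S100A9, and the receptors and adhesion molecules of the phagocyte surface.

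Each value below is a normalised read count as deposited, 1 per library and always in the order of replicates 1 and 2. Differences are decitabine minus RG3039 on the log2(value + 1) scale, so a positive one is higher with decitabine. They come with the standard error of a limma fit over all 8 libraries and a p-value adjusted by Benjamini-Hochberg over the 17534 genes. Adding 1 understates the change of genes with low values. Gene lists are counted over the members that passed the filter on the mean, 1280 in all. These counts are to be read beside 2.67% of all tested genes called higher with decitabine and 1.92% higher with RG3039. Counts at an unadjusted p under 0.05 (limma) are to be read beside 3291 of the 17534 genes, both directions together. A member nearly silent in other groups passed only through the group where it was high, so counts and medians of lists with such members are descriptions. In bulk RNA, fewer cells of a type and less RNA per cell cannot be told apart. The 4 single-drug libraries had an estimated depth of 20700000 to 37100000 reads. Normalised totals over the 8 libraries were 27900000 to 32300000. Pearson's correlation of log2 values over the tested genes was 0.952 between the decitabine libraries, 0.955 between the RG3039 libraries, and 0.925 to 0.934 between libraries of different drugs. All 8 promyelocyte markers were present in every library. Their summed value was 168073 to 210230 with decitabine, 114733 to 131681 with RG3039, 167923 to 205745 with DMSO and 97341 to 110213 with the combination, and most of it was MPO. Of 35 markers of lymphoid, stromal, endothelial and epithelial cells, 7 were at 0 in all 8 libraries (CD5, CDH5, COL3A1, KRT14, KRT19, KRT5 and MS4A1) and 15 had a highest value under 10. The sum of these 35 was 3237 to 3467 with decitabine and 4016 to 4054 with RG3039, and CD4, PECAM1, KRT8 and KRT18 made up most of it.

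Gene levels differed between the drugs in both directions. Of 17534 genes, 806 (4.6%) were called different at an adjusted p under 0.05. Decitabine was higher in 469 of them (2.67% of all genes tested) and RG3039 in 337 (1.92%). The differences toward decitabine were wider: the median log2 difference was 1.77 among genes higher with decitabine and -1.24 among genes higher with RG3039. At least 8-fold differences on this scale numbered 112 and 17, with genes at 0 included through the added 1. Of the genes higher with decitabine, 21 were listed at 0 in both RG3039 libraries. The 2 decitabine and 2 RG3039 values did not overlap in 8472 genes (48.3%), so the lack of overlap by itself says little with 2 libraries a group.

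With 2 libraries per drug, the count leaned on each of them. Without a decitabine library 316 and 283 genes were called, without an RG3039 library 329 and 293, and without a combination library, which only adds to the estimate of the spread, 574 and 563. In all, 165 calls held whichever 1 of the 8 libraries was left out, 107 higher with decitabine and 58 higher with RG3039. Genes from this set of 165 lead the account below, and for the others the libraries on which the call rested are named.

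**Figure D1:**
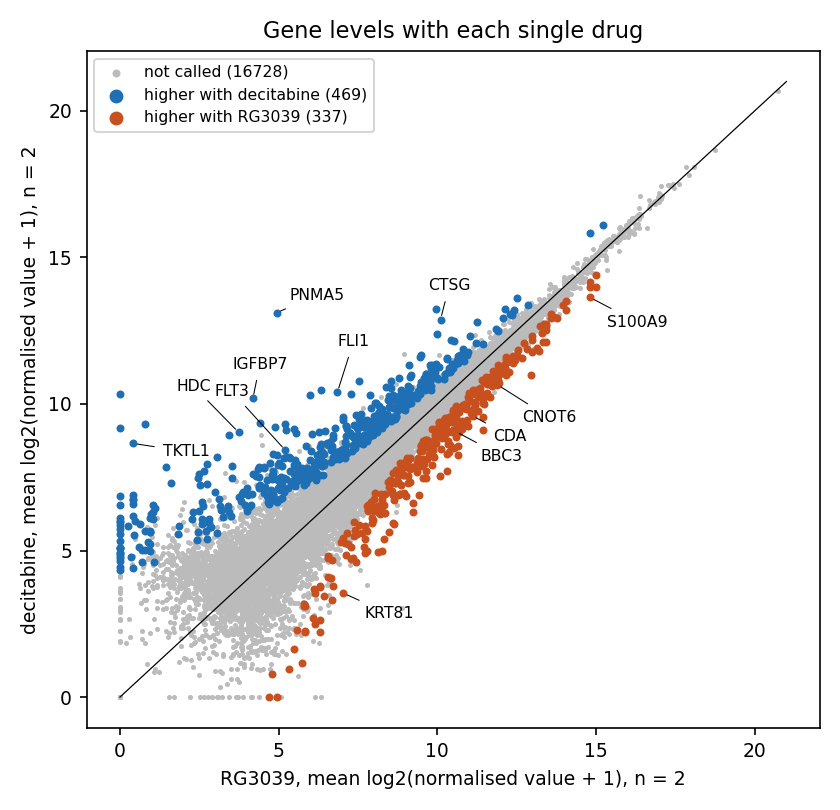
Each point is 1 of 17534 genes, at its mean log2(normalised value + 1) over the 2 RG3039 libraries (horizontal axis) and the 2 decitabine libraries (vertical axis), with the line of equal levels. The 469 genes called higher with decitabine (blue) spread far above the line at low RG3039 levels, while the 337 called higher with RG3039 (orange) keep closer to it.

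The untreated and doubly treated libraries show which drug's libraries stood away from the rest. On the log2 scale, the DMSO mean of genes higher with RG3039 lay nearer to decitabine in 287 of 337 genes (85.2%), and the combination mean lay nearer to RG3039 in 303 (89.9%). In 144 of the 337 (42.7%) the combination was above both single drugs. Genes higher with decitabine were divided more evenly. Their DMSO mean was nearer to decitabine in 298 of 469 (63.5%) and nearer to RG3039 in 171 (36.5%), and their combination mean was nearer to decitabine in 208 (44.3%) and to RG3039 in 261 (55.7%). Over all tested genes, DMSO was nearer to RG3039 in 46.9% and the combination in 54.0%. The genes higher with decitabine thus hold at least 2 kinds: genes low with DMSO and RG3039 and high with decitabine, and genes high with DMSO and decitabine and low with RG3039. No test was made of these positions.

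**Figure D2:**
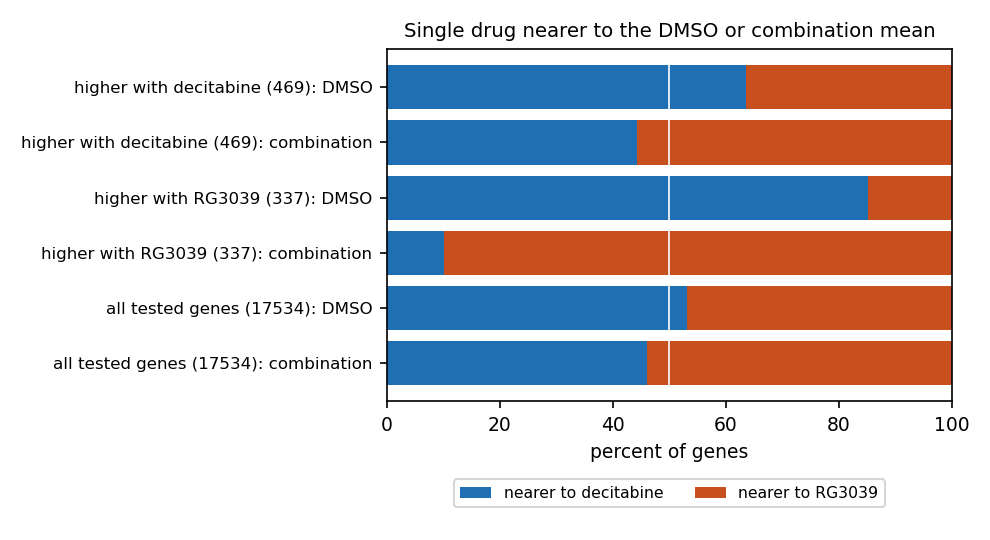
Bars give the percent of genes whose DMSO or combination mean (log2 scale, 2 libraries each) lies nearer to the decitabine mean (blue) or to the RG3039 mean (orange), for genes called in each direction and for all tested genes. For genes higher with RG3039, DMSO sits with decitabine in 85.2% and the combination with RG3039 in 89.9%.

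Germline genes gave the first kind. Of 78 cancer-testis and germline genes, 33 passed the filter on the mean and 45 did not. Among the 33, 10 were called higher with decitabine and none higher with RG3039 by limma (14 and 0 at an unadjusted p under 0.05), where 2.67% and 1.92% of all genes were called. The filter favours such calls: 10 of the 33 had a mean under 10 over the DMSO and RG3039 libraries and passed only through the decitabine or combination libraries. The share is therefore a description and no support. Of the 20 with a DMSO mean of at least 10, 3 were higher with decitabine, and with no filter 10 of the 58 members with any value were. PNMA5 is outside this list and is counted with the PNMA genes below. It is a retrotransposon-derived gene of the paraneoplastic antigen family (chrX:152988824-152994127 on hg38). It stood at 7735 and 10197 with decitabine, 33.6 and 26.3 with RG3039, 19.7 and 39.2 with DMSO and 3079 and 3511 with the combination. Both decitabine libraries were far above every DMSO and RG3039 library, and the combination lay between (8.18 ± 0.32, adjusted p = 6.95e-06). Within the list, TKTL1, a transketolase-like gene of the testis (chrX:154295671-154330350), was at 380.2 and 423 with decitabine and 0 and 0.796 with RG3039. It was at 1.51 and 0 in DMSO and 90.7 and 73.7 in the combination (adjusted p = 0.00067). So close to 0, the size of its difference depends on the added 1.

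MAGEB2, a melanoma antigen gene of the testis (chrX:30215560-30220089), differed by 4.33 ± 0.32, adjusted p = 0.000282. Its values were 632 and 548 with decitabine, 22.8 and 35.0 with RG3039, 62.8 and 51.3 with DMSO and 275 and 326 with the combination, so RG3039 was also below DMSO here. PIWIL4, a PIWI protein that binds small RNAs in male germ cells, was expressed in all groups and differed by 1.76 ± 0.24, adjusted p = 0.00417. Its values were 853 and 1106 with decitabine, 251 and 325 with RG3039, 246 and 338 with DMSO and 955 and 829 with the combination, with decitabine and the combination together above the other 4 libraries. TUBA3D, a testis α-tubulin, was listed at 0 with RG3039 and with DMSO, in both libraries each. With decitabine it reached 127 and 106, and in the combination 169.8 and 166 (adjusted p = 0.00137). Its near-identical copies make its level uncertain.

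Further germline members were low in RG3039 and their calls did not hold without every library. DAZL, an RNA-binding protein of germ cells, was at 94.4 and 49.9 with decitabine and at 0 in both RG3039 libraries. MAEL, which acts in piRNA silencing of transposons, was at 188 and 194 against 34.3 and 20.3. The cancer-testis antigen CTAG1A was at 56.6 and 66.5 against 0 and 0. PAGE5 was at 62.2 and 75.3 against 2.74 and 0, PAGE2B at 56.2 and 42.5 against 2.73 and 0, and HORMAD1, of the meiotic chromosome axis, at 56.4 and 41.6 against 2.73 and 0. CTAG1A and the PAGE genes have near-identical copies. Of the germline genes outside the list, FMR1NB was at 75.3 and 113 with decitabine and 0 in both RG3039 libraries, and GPAT2, an acyltransferase of the testis, at 87.6 and 124 against 0 and 0.796. DAZL, MAEL and CTAG1A lost their calls without either decitabine library (adjusted p = 0.052 to 0.0939). PAGE5 lost its call without either decitabine library or RG3039 replicate 2 (adjusted p = 0.0811 to 0.129). PAGE2B lost its call without either decitabine library, RG3039 replicate 2 or either combination library (adjusted p = 0.0547 to 0.143). HORMAD1 lost its call without either decitabine library, either RG3039 library or either combination library (adjusted p = 0.0671 to 0.219). FMR1NB and GPAT2 lost their calls without decitabine replicate 2 (adjusted p = 0.0527 to 0.0596).

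The promoters of PNMA5 and of 2 X-linked germline genes are shown because DNA methylation acts at CpG dinucleotides. Those of the granule gene CTSG and of S100A9, described below, are shown for contrast. The windows run from 250 bases before to 50 bases after the RefSeq start (GRCh38.p14), are printed 5′ to 3′ on the gene's own strand, and carry their CpG dinucleotides in capitals. PNMA5 (chrX:152994067-152994366, minus strand) has 23 CpG, TKTL1 (chrX:154295545-154295844, plus strand) 18 and MAGEB2 (chrX:30215313-30215612, plus strand) 21. CTSG (chr14:24576201-24576500, minus strand) has 3 and S100A9 (chr1:153357604-153357903, plus strand) 5. The median over all matched promoters of tested genes was 26, above each of these. CTSG was itself called higher with decitabine, so the contrast rests on the genes chosen. Methylation was not measured in these libraries.
PNMA5: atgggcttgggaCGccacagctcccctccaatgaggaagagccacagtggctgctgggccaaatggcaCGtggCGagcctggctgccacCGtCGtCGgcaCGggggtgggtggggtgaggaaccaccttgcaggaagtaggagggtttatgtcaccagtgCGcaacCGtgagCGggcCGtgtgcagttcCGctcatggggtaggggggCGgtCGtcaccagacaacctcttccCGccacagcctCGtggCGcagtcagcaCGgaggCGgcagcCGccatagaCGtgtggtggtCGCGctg
TKTL1: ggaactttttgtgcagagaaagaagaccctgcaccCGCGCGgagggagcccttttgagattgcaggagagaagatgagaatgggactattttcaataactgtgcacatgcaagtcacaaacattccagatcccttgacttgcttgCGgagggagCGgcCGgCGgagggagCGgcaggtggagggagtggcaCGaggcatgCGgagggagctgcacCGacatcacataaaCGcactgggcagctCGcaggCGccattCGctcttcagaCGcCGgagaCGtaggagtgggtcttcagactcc
MAGEB2: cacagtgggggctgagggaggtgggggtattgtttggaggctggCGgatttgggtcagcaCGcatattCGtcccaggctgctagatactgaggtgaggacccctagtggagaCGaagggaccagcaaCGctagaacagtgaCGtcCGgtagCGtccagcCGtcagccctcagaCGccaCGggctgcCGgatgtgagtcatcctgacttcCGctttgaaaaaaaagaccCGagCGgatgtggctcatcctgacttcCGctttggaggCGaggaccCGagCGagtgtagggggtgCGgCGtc
CTSG: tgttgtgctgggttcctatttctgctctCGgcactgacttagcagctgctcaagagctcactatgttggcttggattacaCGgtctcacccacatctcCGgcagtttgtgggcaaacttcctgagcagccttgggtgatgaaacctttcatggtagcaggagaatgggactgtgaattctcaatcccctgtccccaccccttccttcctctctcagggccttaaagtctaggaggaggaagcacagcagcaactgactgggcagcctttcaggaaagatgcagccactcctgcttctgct
S100A9: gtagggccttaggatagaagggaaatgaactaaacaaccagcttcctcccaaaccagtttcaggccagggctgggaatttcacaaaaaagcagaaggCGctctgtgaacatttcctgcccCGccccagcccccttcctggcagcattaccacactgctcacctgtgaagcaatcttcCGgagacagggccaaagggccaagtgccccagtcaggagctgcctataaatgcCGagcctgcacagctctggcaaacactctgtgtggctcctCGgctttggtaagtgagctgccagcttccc

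Across promoters as a whole, the median CpG number lay near that of all genes in both directions. RefSeq windows were matched for 334 of the 405 protein-coding genes higher with decitabine (82.5%; chromosome 8 and the mitochondrial genome left out), 200 of 239 higher with RG3039 (83.7%) and 10466 of 12513 tested (83.6%). The median CpG number was 26, 25 and 26 in that order. Windows with under 5 CpG made up 11.7% of those of genes higher with decitabine, 7.5% for RG3039 and 7.03% of all. Windows with at least 15 made up 71.6%, 74.0% and 79.8%.

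**Figure D3:**
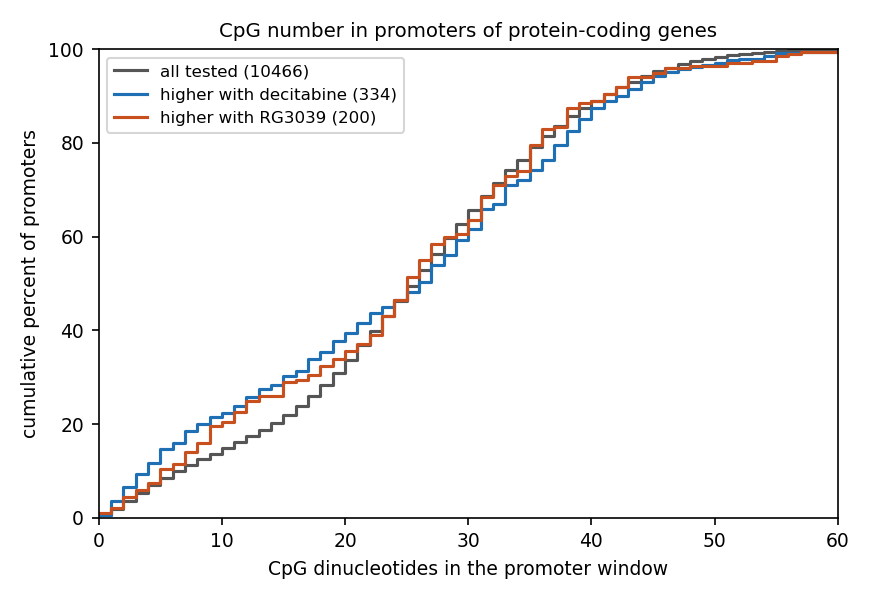
Curves give the cumulative percent of promoter windows of 300 bases (vertical axis) with up to a given number of CpG dinucleotides (horizontal axis), for protein-coding genes called in each direction and for all tested ones. Both called sets run above the curve of all genes at low CpG numbers, and the medians lie at 26 (decitabine), 25 (RG3039) and 26 (all).

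The X chromosome carried 26 genes called higher with decitabine out of 558 tested (4.66%, against 2.67% over all chromosomes) and 11 higher with RG3039 (1.97%). The former include genes named above, such as TKTL1, CTAG1A and FMR1NB, that passed the filter only through decitabine or combination libraries. This share is therefore a description and no support. Outside the germline list, other genes nearly silent in DMSO and RG3039 were also higher with decitabine. COL14A1, a fibril-associated collagen, was at 638 and 642 with decitabine, 2.04 and 0 with RG3039, 0.426 and 0 with DMSO and 55.5 and 34.8 with the combination (adjusted p = 0.00067). OTP, a homeobox gene of the hypothalamus, was at 294 and 179 with decitabine and 3.39 and 0.670 with RG3039 (6.41 ± 0.72, adjusted p = 0.00167). NKAPL, a testis paralogue of the Notch corepressor gene NKAP, was at 52.6 and 74.8 with decitabine and at 0 in both RG3039 libraries. AC093155.3, a gene known by its clone name, was at 90.3 and 98.7 against 0 and 0.796. NKAPL lost its call without decitabine replicate 2 (adjusted p = 0.051). AC093155.3 lost its call without either decitabine library (adjusted p = 0.052 to 0.0596).

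PNMA and histone genes differed in both directions. Of 7 tested PNMA family genes, 2 were higher with decitabine and 1 with RG3039, with a list median of 0.22. Of the 7, 1 passed the filter only through decitabine or combination libraries. Among the 5 with a DMSO mean of at least 10, 1 was higher with decitabine and 1 with RG3039. Besides PNMA5, PNMA6E was at 177 and 216 with decitabine and 2.22 and 8.78 with RG3039. PNMA6A went the other way, at 17.5 and 6.24 with decitabine and 75.2 and 63.7 with RG3039. Its call was lost on leaving out any of the 8 libraries (adjusted p = 0.0543 to 0.213). PNMA6E lost its call without either decitabine library or RG3039 replicate 1 (adjusted p = 0.0561 to 0.0826).

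Of 39 replication-dependent histone genes, 4 were higher with decitabine and 3 with RG3039 (median -0.11). Of the 39, 3 passed the filter only through decitabine or combination libraries, so these counts are a description. Among the 35 with a DMSO mean of at least 10, 2 were higher with decitabine and 3 with RG3039. H1-1, a linker histone gene, was at 138 and 103 with decitabine, 0 and 0.796 with RG3039, 0 and 0 with DMSO and 91.6 and 94.8 with the combination (adjusted p = 0.0024). The H2A gene H2AC14 was at 95.7 and 122 against 0 and 0.796 (adjusted p = 0.00241), and H2AC13 at 274 and 211 with decitabine, 33.6 and 27.9 with RG3039, 38.6 and 22.6 with DMSO and 433 and 354 with the combination (2.93 ± 0.37, adjusted p = 0.00284). For these 3 genes, DMSO and RG3039 were low together, and decitabine and the combination were high together. H2BC21 was higher with RG3039 instead, at 152 and 98.7 with decitabine, 508 and 485 with RG3039, 98.4 and 70.9 with DMSO and 557 and 558 with the combination (-2.01 ± 0.28, adjusted p = 0.00476). H1-3 (0.92 ± 0.21), H1-2 (-0.61 ± 0.12) and H2AC18 (-0.76 ± 0.14) were also called. Histone genes are near-identical to each other and most of their mRNA has no poly(A) tail, so their levels in libraries of polyadenylated RNA are uncertain. H1-3 and H1-2 lost their calls without either decitabine library, either RG3039 library or either combination library (adjusted p = 0.0624 to 0.184). H2AC18 lost its call without decitabine replicate 1 or either RG3039 library (adjusted p = 0.092 to 0.0939).

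The genes of eosinophils and basophils that were called were higher with decitabine. Of 14 tested, 6 were called in that direction and none in the other by limma (7 and 0 at an unadjusted p under 0.05). The list median was 1.31, 10 of the 14 differences were positive, and the lowest was -0.68. Of the 14, 3 passed the filter only through decitabine or combination libraries, and all 6 calls were among the 12 with a DMSO mean of at least 10. With no filter, 4 of the 17 members with any value were called higher with decitabine. HDC, which makes histamine, was at 444 and 617 with decitabine, 8.80 and 17.1 with RG3039, 12.9 and 15.5 with DMSO and 923 and 1015 with the combination (5.30 ± 0.38, adjusted p = 0.000282). Every decitabine and combination library was far above every DMSO and RG3039 library. EPX, eosinophil peroxidase, was at 2836 and 3742 with decitabine, 656 and 770.4 with RG3039, 393 and 666 with DMSO and 2108 and 2707 with the combination (2.19 ± 0.26, adjusted p = 0.00232), and CLC, the Charcot-Leyden crystal protein, at 1443 and 1542 with decitabine and 638 and 505 with RG3039 (1.39 ± 0.20, adjusted p = 0.00476).

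For CLC, RG3039 was also above DMSO (418 and 423), and the combination lay between the single drugs (889.7 and 1146). PRG2, the eosinophil granule major basic protein, was at 63797 and 77821 with decitabine, 36782 and 38882 with RG3039, 20683 and 23688 with DMSO and 65472 and 67395 with the combination (0.90 ± 0.14, adjusted p = 0.00822). IL5RA, the interleukin-5 receptor chain, was at 92.3 and 92.2 against 9.72 and 27.5. CPA3, a carboxypeptidase of mast cells and basophils, was at 121 and 143 against 36.3 and 18.3. GATA2, a transcription factor of this lineage and of stem cells, was at 2611 and 2581 with decitabine, 915 and 829.9 with RG3039, 555 and 466 with DMSO and 2619 and 3096 with the combination (1.57 ± 0.17, adjusted p = 0.00136). GATA2 thus showed decitabine and the combination together above the other 4 libraries, as HDC and EPX did. PRG2 lost its call without decitabine replicate 2 or either RG3039 library (adjusted p = 0.0566 to 0.075). IL5RA lost its call without either decitabine library, RG3039 replicate 1, either combination library or either DMSO library (adjusted p = 0.0542 to 0.219). CPA3 lost its call without either decitabine library, RG3039 replicate 2 or either combination library (adjusted p = 0.0515 to 0.147).

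The azurophil granule and promyelocyte genes that were called were also higher with decitabine, some of them of the second kind. Of 26 tested, 11 were higher with decitabine and none with RG3039 by limma (12 and 3 at an unadjusted p under 0.05). Over all genes 2.67% and 1.92% were called. The list median was 0.22, and 17 of the 26 differences were positive. The elastase gene ELANE was not called, at 13421.5 and 12907.5 with decitabine and 13333 and 15095 with RG3039. The list shares members with the promyelocyte markers, whose sum was lower with RG3039, and their part in the result was not tested. CTSG, cathepsin G, was at 6653 and 8546 with decitabine, 999 and 1203 with RG3039, 4468 and 3016 with DMSO and 1285 and 1259 with the combination (2.78 ± 0.21, adjusted p = 0.000282). Both RG3039 libraries and both combination libraries were below every other library. CLEC11A, the stem cell growth factor, followed the same order, at 4783 and 5947 with decitabine, 960.3 and 1089 with RG3039, 5327 and 4978 with DMSO and 1286 and 1139.7 with the combination (2.38 ± 0.16, adjusted p = 0.00026), with decitabine and DMSO overlapping.

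DEFA3, an α-defensin of azurophil granules, was at 1796 and 1696 with decitabine, 228 and 149.6 with RG3039, 667 and 670.2 with DMSO and 613 and 642 with the combination (3.23 ± 0.22, adjusted p = 0.00026), so that decitabine stood above DMSO and RG3039 below it. DEFA1, its near-identical copy, had 8062 and 9286 with decitabine against 5215 and 4886 with RG3039, and DMSO was above both at 12382 and 16286. Reads may be split between the 2 defensin genes. PRSS57, a serine protease of azurophil granules, was at 1231 and 1383 with decitabine, 184 and 132 with RG3039, 302 and 307 with DMSO and 342 and 162 with the combination (3.06 ± 0.33, adjusted p = 0.00157). HGF, hepatocyte growth factor, was at 1165 and 1404 with decitabine, 204 and 266 with RG3039, 361 and 366 with DMSO and 398 and 408 with the combination (2.45 ± 0.21, adjusted p = 0.000625), with the 2 decitabine libraries above all others. CST7, a cysteine protease inhibitor of leukocytes, was at 2346 and 2700.0 against 828 and 1066, with DMSO at 1886 and 2195 and the combination at 1121 and 1382 (1.42 ± 0.19, adjusted p = 0.00376). DEFA1 lost its call without either decitabine library, either RG3039 library or either combination library (adjusted p = 0.0526 to 0.147).

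The proteases PRTN3 and AZU1 were higher with decitabine by 1.10 ± 0.16 and 1.41 ± 0.22. PRTN3 was at 11813 and 13055 against 5609.9 and 5956, and AZU1 at 1192 and 1029 against 377 and 461. NKG7, a granule membrane protein, differed by 2.37 ± 0.41, and IGLL1, a surrogate light chain gene, by 1.23 ± 0.25. FCGR1A, the high-affinity IgG receptor and the 1 of 39 monocyte and macrophage genes called higher with decitabine, was at 1777 and 1982 with decitabine, 474 and 405 with RG3039, 969.7 and 1301 with DMSO and 503 and 515 with the combination (2.10 ± 0.19, adjusted p = 0.000751). PRTN3 lost its call without decitabine replicate 2 or RG3039 replicate 1 (adjusted p = 0.0513 to 0.0528). AZU1 lost its call without decitabine replicate 1 or RG3039 replicate 1 (adjusted p = 0.0658 to 0.0681). NKG7 lost its call without either decitabine library or RG3039 replicate 1 (adjusted p = 0.0685 to 0.0844). IGLL1 lost its call without either decitabine library or either RG3039 library (adjusted p = 0.0601 to 0.166).

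**Figure D4:**
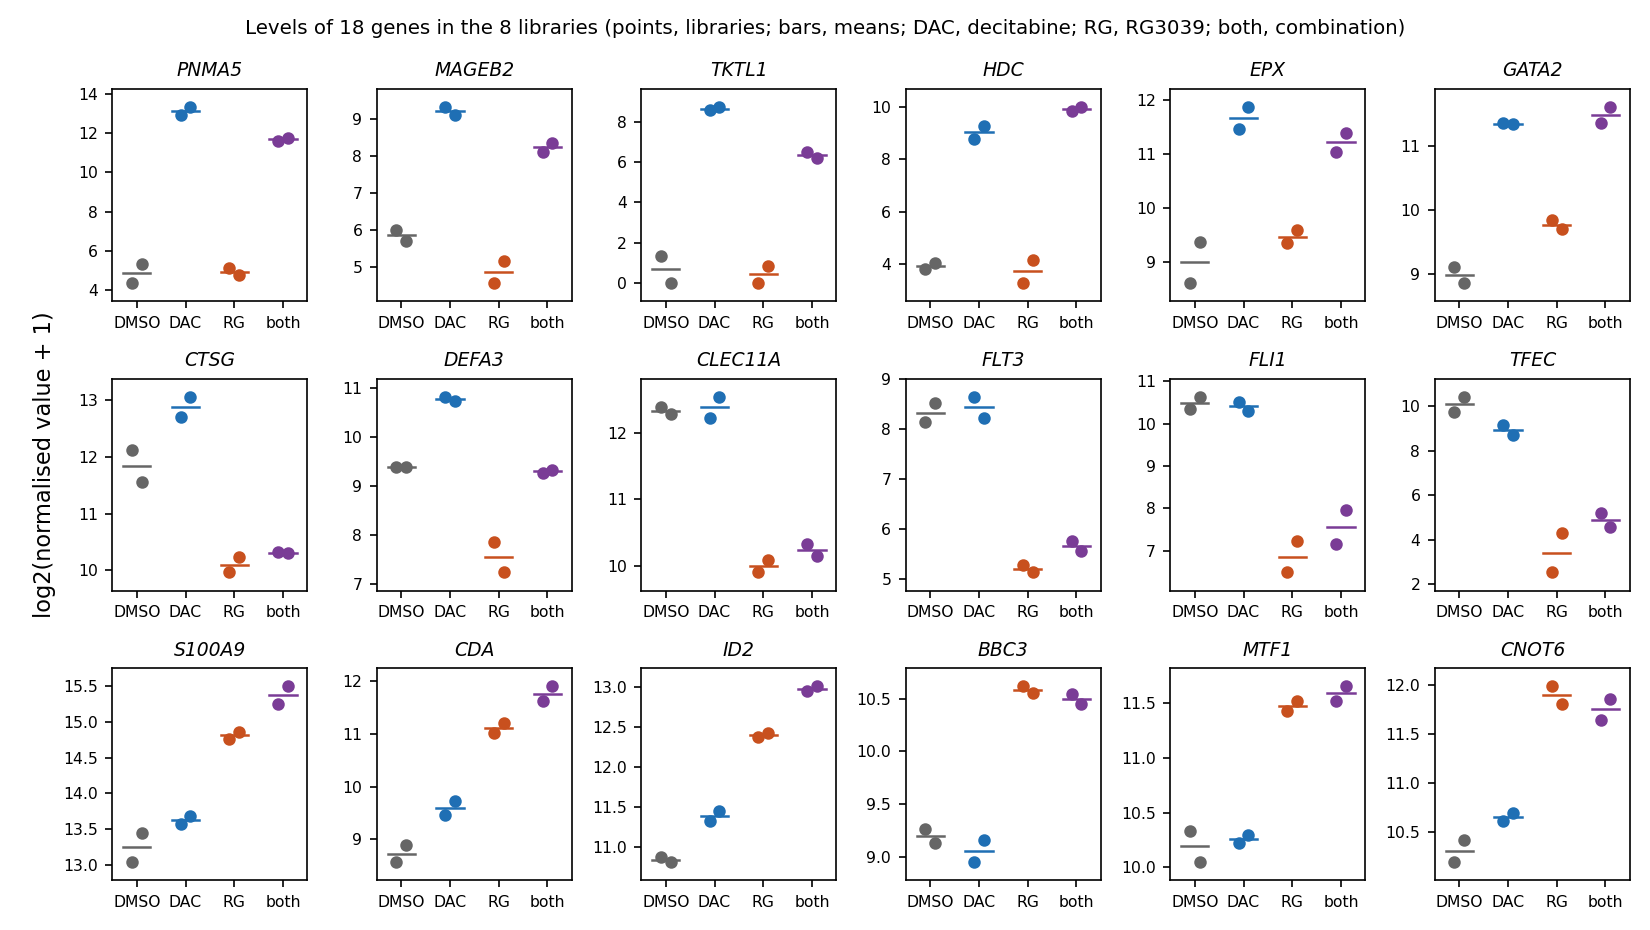
Points are the 8 libraries (2 per group), as log2(normalised value + 1), and bars are group means. DAC stands for decitabine, RG for RG3039 and both for the combination. The top row shows genes high with decitabine and the combination, the middle row genes with their lowest mean with RG3039, and the bottom row genes high with RG3039 and the combination.

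Transcription factors of stem and progenitor cells were called mostly toward decitabine. Of 35 tested factors, 8 were higher with decitabine and 2 with RG3039, and 31 had a positive difference (median 0.59). FLI1, an ETS factor of haematopoietic and endothelial cells, was at 1462 and 1262 with decitabine, 88.6 and 148 with RG3039, 1302 and 1585 with DMSO and 142 and 246 with the combination (3.56 ± 0.32, adjusted p = 0.00067), with decitabine and DMSO overlapping and both groups given RG3039 far below. HOXA10, a homeobox factor of progenitors, was at 169 and 142 with decitabine, 6.72 and 4.77 with RG3039, 47.7 and 24.2 with DMSO and 63.3 and 61.1 with the combination (4.55 ± 0.50, adjusted p = 0.00157), with decitabine above and RG3039 below DMSO. ID2, an inhibitor of basic helix-loop-helix factors, was an exception, at 2574 and 2804 with decitabine, 5303 and 5468 with RG3039, 1871 and 1802 with DMSO and 7881 and 8219 with the combination (adjusted p = 0.00316). For ID2 the order from DMSO through decitabine and RG3039 to the combination had no overlap between neighbours.

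Further calls in this list were those of ETV6 at 1.75 ± 0.32, IKZF2 at 1.46 ± 0.26, NFE2 at 1.14 ± 0.20 and SOX4 at 0.76 ± 0.15. RUNX1, the core-binding factor of blood formation, was at 2296 and 2234 with decitabine and 1365 and 1376 with RG3039. PBX3, a HOX cofactor, was higher with RG3039, at 734 and 737 against 337 and 342. The ETV6 libraries of decitabine were far apart, at 7196 and 3006. ETV6 lost its call without either RG3039 library (adjusted p = 0.0821 to 0.091). IKZF2, SOX4 and PBX3 lost their calls without either decitabine library or either RG3039 library (adjusted p = 0.0501 to 0.112). NFE2 lost its call without decitabine replicate 2 or either RG3039 library (adjusted p = 0.0736 to 0.0983). RUNX1 lost its call without either decitabine library, either RG3039 library or combination replicate 2 (adjusted p = 0.0505 to 0.154).

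FLT3, the receptor tyrosine kinase of early progenitors, was at 397 and 296 with decitabine, 37.9 and 34.0 with RG3039, 281 and 362 with DMSO and 53.4 and 45.9 with the combination (3.22 ± 0.31, adjusted p = 0.000929). KIT, the stem cell factor receptor, was at 441 and 499.9 with decitabine, 207 and 248 with RG3039, 647 and 619 with DMSO and 240.0 and 228 with the combination (1.05 ± 0.21, adjusted p = 0.0222). In the list of 44 cytokine and growth factor receptors, 4 were higher with decitabine and 2 with RG3039 (median 0.10). IFNAR2, an interferon receptor chain, differed by 0.68 ± 0.16, and IL17RA, the interleukin-17 receptor, was higher with RG3039, at 13235 and 14902 against 7372 and 8357 (-0.84 ± 0.14, adjusted p = 0.00969). IGFBP7, a secreted protein that binds insulin-like growth factors, was at 1457 and 942 with decitabine, 15.3 and 19.4 with RG3039, 2063 and 2788 with DMSO and 19.6 and 12.6 with the combination (6.01 ± 0.34, adjusted p = 7.76e-05). Both groups given RG3039 lay far below both groups without it. KIT lost its call without either decitabine library or either RG3039 library (adjusted p = 0.0679 to 0.143). IFNAR2 lost its call without either decitabine library, either RG3039 library, either combination library or DMSO replicate 2 (adjusted p = 0.0509 to 0.226). IL17RA lost its call without decitabine replicate 1 or RG3039 replicate 2 (adjusted p = 0.0693 to 0.0848).

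TFEC, a factor of the MITF family in myeloid cells, was at 567 and 415 with decitabine, 4.81 and 18.8 with RG3039, 858 and 1367 with DMSO and 35.4 and 22.4 with the combination (5.50 ± 0.55, adjusted p = 0.00114), also with both groups given RG3039 far below the others. GP1BB, a platelet adhesion receptor subunit, was listed at 0 in both RG3039 libraries and at 639 and 533 with decitabine, 273 and 27.2 with DMSO and 1013 and 665 with the combination (adjusted p = 0.00067). ITGA2B, the platelet integrin αIIb chain, was at 73.7 and 58.7 with decitabine, 1.60 and 7.80 with RG3039, 36.5 and 38.5 with DMSO and 22.7 and 13.2 with the combination. In all, 5 of the 19 tested among 35 erythroid, platelet and mast cell genes were higher with decitabine and none with RG3039 by limma (5 and 1 at an unadjusted p under 0.05, median 0.13), HDC and CPA3 among them. PTP4A1, a phosphatase, had the widest difference among called genes with a mean of at least 20, but it was at 0 in 1 DMSO library (1091 and 0) as well as in both RG3039 and both combination libraries, with 867 and 1898 in decitabine. ITGA2B lost its call without either decitabine library or RG3039 replicate 1 (adjusted p = 0.0756 to 0.111). PTP4A1 lost its call without either decitabine library, either RG3039 library or either combination library (adjusted p = 0.0725 to 0.198).

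The antigen presentation and interferon genes that were called were all higher with decitabine than with RG3039. Of 21 tested MHC presentation genes 2 were higher with decitabine and none with RG3039 by limma, where 2.67% and 1.92% of all genes were called (6 and 1 at an unadjusted p under 0.05, median 0.10). ERAP1, which trims peptides for presentation, was 1 of these, at 298 and 224 against 95.7 and 103. Of 39 interferon-stimulated genes 3 were higher with decitabine and none with RG3039, beside the same 2.67% and 1.92% of all genes. By limma, 7 and 3 had an unadjusted p under 0.05 (median 0.41). Of the 39, 4 passed the filter only through decitabine or combination libraries. Among the 35 with a DMSO mean of at least 10, 2 were higher with decitabine. PARP14, a mono-ADP-ribosyltransferase, was at 488 and 751 with decitabine, 116 and 165 with RG3039, 525 and 474 with DMSO and 508 and 406 with the combination (2.12 ± 0.28, adjusted p = 0.00347), so that RG3039 alone stood below the other 3 groups. LGALS3BP, a secreted galectin ligand, was at 74.2 and 82.1 against 2.69 and 5.57. DDX60, a helicase, was at 28.6 and 19.4 with decitabine and 3.43 and 0 with RG3039. Both drugs were below DMSO for DDX60 (81.4 and 110), and the combination was at 5.66 and 6.56. ERAP1 lost its call without either decitabine library, either RG3039 library or combination replicate 2 (adjusted p = 0.0504 to 0.159). LGALS3BP lost its call without either decitabine library (adjusted p = 0.0507 to 0.0601). DDX60 lost its call without either decitabine library, RG3039 replicate 2, either combination library or either DMSO library (adjusted p = 0.0725 to 0.219).

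Stress response genes were called in both directions. Of 40 genes of the integrated stress and unfolded protein responses, 4 were higher with decitabine and 2 with RG3039 (median 0.07). CALR, the calcium-binding chaperone calreticulin of the endoplasmic reticulum, was at 58228 and 58473 with decitabine, 31363 and 26159 with RG3039, 44067 and 32742 with DMSO and 20025 and 19037 with the combination (1.03 ± 0.16, adjusted p = 0.00846). The disulphide isomerase PDIA4 was at 2695 and 2578 against 1516 and 1319.8 (0.90 ± 0.15, adjusted p = 0.00933), and XBP1, a transcription factor of the unfolded protein response, at 3529 and 2939 against 1852 and 1491 (0.95 ± 0.17, adjusted p = 0.0147). XBP1 was at 3525 and 4248 with DMSO, overlapping decitabine, and at 1482 and 1476 with the combination. PSPH, the last enzyme of serine synthesis, differed by 1.55 ± 0.33, at 191 and 195 with decitabine and 81.6 and 52.2 with RG3039. Both drugs were below DMSO for PSPH (256 and 246). TRIB3, a pseudokinase induced by ATF4, was higher with RG3039, at 1234 and 1221 against 642 and 652, with DMSO at 602 and 515 (-0.92 ± 0.17, adjusted p = 0.0147). TIMELESS, a fork protection factor and the 1 of 50 DNA replication genes called, was at 2232 and 2594 with decitabine, 922 and 846 with RG3039, 2384 and 2346 with DMSO and 1145 and 975 with the combination (1.45 ± 0.16, adjusted p = 0.0016), again with both groups given RG3039 below the others. CALR, PDIA4 and PSPH lost their calls without either decitabine library or RG3039 replicate 2 (adjusted p = 0.0528 to 0.148). XBP1 lost its call without decitabine replicate 1 or RG3039 replicate 2 (adjusted p = 0.102 to 0.106). TRIB3 lost its call without either decitabine library or either RG3039 library (adjusted p = 0.0747 to 0.093).

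**Figure D5:**
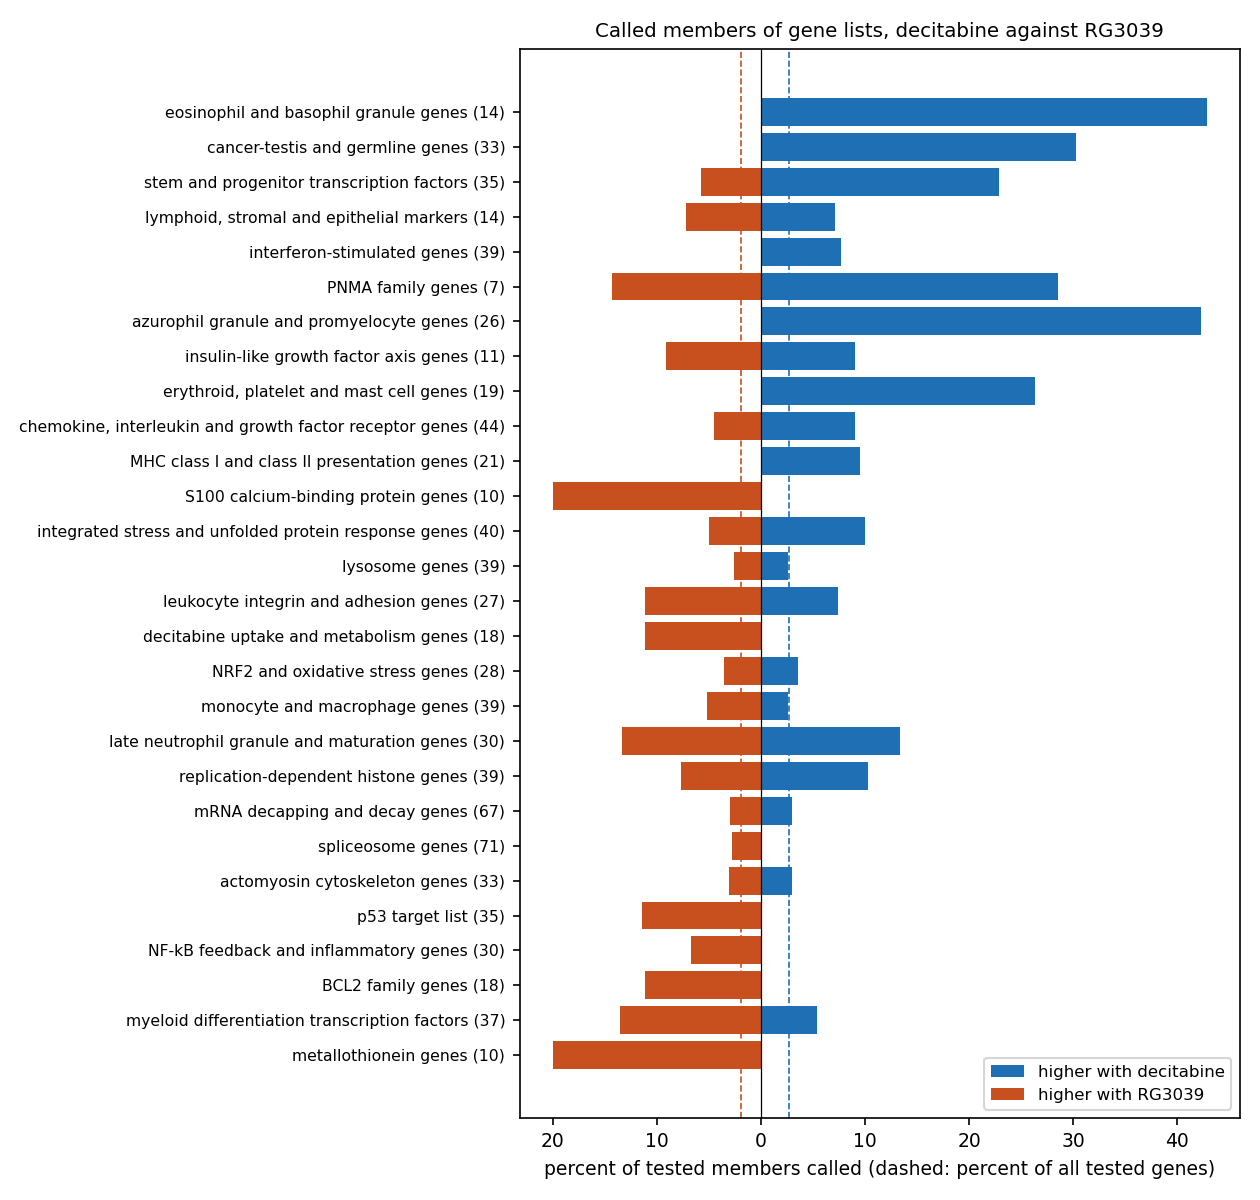
Bars give, for each gene list with at least 2 called members, the percent of tested members (number in brackets) called higher with decitabine (blue, to the right) or with RG3039 (orange, to the left), ordered by the list's median difference. Dashed lines mark the background of 2.67% and 1.92% of all tested genes, and the longest bars are those of the eosinophil and basophil, azurophil granule, and cancer-testis lists, all toward decitabine.

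The S100 alarmins of maturing phagocytes were among the abundant genes higher with RG3039. S100A9 was at 12215 and 13233 with decitabine, 27782 and 29737 with RG3039, 8456 and 11215 with DMSO and 38981 and 46194 with the combination (-1.18 ± 0.16, adjusted p = 0.00419). The RG3039 libraries lay above the decitabine libraries, these above DMSO, and the combination was highest. Its partner S100A8 was at 15717 and 16878 with decitabine, 28822 and 28709 with RG3039, 10687 and 14266 with DMSO and 37249 and 45555 with the combination (-0.82 ± 0.16, adjusted p = 0.0231). These were 2 of the 10 S100 genes tested among 19, with none higher with decitabine by limma (2 at an unadjusted p under 0.05, against 3 toward RG3039), and the list median was 0.09. S100A12 had 1216 and 1349 with decitabine and 771 and 902 with RG3039 (adjusted p = 0.0949). S100A8 lost its call without either decitabine library or either RG3039 library (adjusted p = 0.0895 to 0.134).

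Late neutrophil genes were divided. Of 30 tested, 4 were higher with decitabine and 4 with RG3039 (median -0.07), and S100A9 alone kept its call without each library. Of the 30, 1 passed the filter only through decitabine or combination libraries. Among the 28 with a DMSO mean of at least 10, 3 were higher with decitabine and 4 with RG3039. Toward RG3039, FPR1, the formyl peptide receptor, was at 444 and 313 against 104 and 156, and PADI4, which citrullinates histones, at 1039 and 1085 against 648 and 670.2. Toward decitabine, the secondary granule genes LCN2 and TCN1 were at 16.98 and 33.9 and at 241 and 170.0, against 0 in both RG3039 libraries and 84.9 and 45.4. SLPI, a protease inhibitor, was at 688 and 805 against 383 and 386. FPR1 lost its call without either decitabine library, either RG3039 library or combination replicate 2 (adjusted p = 0.0501 to 0.164). PADI4 and LCN2 lost their calls without either decitabine library, either RG3039 library or either combination library (adjusted p = 0.0901 to 0.228). TCN1 lost its call without either decitabine library, RG3039 replicate 2 or either combination library (adjusted p = 0.0685 to 0.195). SLPI lost its call without either decitabine library or either RG3039 library (adjusted p = 0.0596 to 0.118).

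Of 39 tested monocyte and macrophage genes, 1 was called toward decitabine (FCGR1A) and 2 toward RG3039 (median -0.06). Over all genes 2.67% and 1.92% were called. EGR1, an immediate early factor of monocytic differentiation, was at 267 and 198 with decitabine, 610.0 and 569 with RG3039, 128 and 133 with DMSO and 845 and 995 with the combination (-1.35 ± 0.23, adjusted p = 0.00992). CD14, the endotoxin coreceptor, was at 247 and 182 with decitabine, 457 and 469 with RG3039, 141 and 148 with DMSO and 651 and 826 with the combination (-1.12 ± 0.24, adjusted p = 0.0297). For both genes the groups ran from DMSO through decitabine and RG3039 up to the combination. Of 37 myeloid differentiation factors, 5 were higher with RG3039 and 2 with decitabine (median -0.32). KLF5 was at 419 and 505 with RG3039 against 211 and 245, TFE3 at 688 and 861 against 321 and 417, CEBPB at 1909 and 1612 against 1138 and 827, and RXRA at 4984 and 5708 against 2986 and 3425. CEBPA, the factor that granulocytes need, was higher with decitabine, at 10220.5 and 10935 against 7482 and 7420.3, with DMSO at 14374 and 14108. EGR1 lost its call without decitabine replicate 2 or either RG3039 library (adjusted p = 0.0609 to 0.0758). CD14, KLF5, TFE3, RXRA and CEBPA lost their calls without either decitabine library, either RG3039 library or either combination library (adjusted p = 0.0514 to 0.228). CEBPB lost its call without decitabine replicate 2, either RG3039 library or either combination library (adjusted p = 0.0721 to 0.223).

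The integrin chains of phagocytes also went apart. ITGB2, the shared β2 chain, was at 15239.9 and 17093 with decitabine, 33701 and 32214 with RG3039, 16585 and 12822 with DMSO and 31623 and 27684 with the combination (-1.03 ± 0.15, adjusted p = 0.00623). Its partner ITGAM, the αM chain, was higher with decitabine, at 162 and 219.8 against 57.3 and 68.7 (1.57 ± 0.32, adjusted p = 0.0248). PECAM1, an adhesion molecule of leukocytes, platelets and endothelium, was at 565 and 821 with decitabine, 1633 and 1875 with RG3039, 608 and 582 with DMSO and 3085 and 3459.9 with the combination (-1.36 ± 0.20, adjusted p = 0.00562). ITGA6 was higher with RG3039, at 1394 and 1231 against 569 and 777, and CD44, the hyaluronan receptor, was lower with RG3039 than in any other group, at 757 and 1019 against 1952 and 1727. Of 27 integrin and adhesion genes, 2 were higher with decitabine and 3 with RG3039. The NADPH oxidase gene NCF1, which has near-identical pseudogenes, was at 1623 and 2278 with decitabine, 3252 and 3426 with RG3039, 1219 and 983 with DMSO and 6839 and 6314 with the combination (-0.80 ± 0.19, adjusted p = 0.0453) and was the 1 of 9 oxidase genes that was called (2 toward RG3039 and 0 toward decitabine at an unadjusted p under 0.05). ITGB2 lost its call without decitabine replicate 1 or RG3039 replicate 1 (adjusted p = 0.0521 to 0.0558). ITGAM lost its call without either decitabine library, either RG3039 library or combination replicate 2 (adjusted p = 0.0504 to 0.147). PECAM1 lost its call without RG3039 replicate 2 (adjusted p = 0.0554). ITGA6 lost its call without decitabine replicate 1 or either RG3039 library (adjusted p = 0.0759 to 0.141). CD44 lost its call without either decitabine library or RG3039 replicate 1 (adjusted p = 0.0649 to 0.114). NCF1 lost its call without decitabine replicate 1, either RG3039 library or either combination library (adjusted p = 0.0819 to 0.224).

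Of 35 tested genes in the p53 target list, 4 were higher with RG3039 and none with decitabine by limma (median -0.18). Over all genes the shares were 1.92% and 2.67%. At an unadjusted p under 0.05 the counts were 8 and 0, where 3291 of all 17534 genes passed in either direction. HL-60 is known to lack functional p53. BBC3, which encodes the BH3-only protein PUMA, was at 495 and 572 with decitabine, 1568 and 1499 with RG3039, 612 and 561 with DMSO and 1494 and 1398 with the combination (-1.52 ± 0.17, adjusted p = 0.00154). Both groups given RG3039 were above both groups without it. SAT1, which acetylates and so depletes polyamines, was at 2126 and 2229 with decitabine, 4769 and 4601 with RG3039, 1504 and 2045 with DMSO and 6350.3 and 7188 with the combination (-1.11 ± 0.17, adjusted p = 0.00655). NINJ1, a membrane protein that ruptures the dying cell, was at 909 and 917 with decitabine, 1815 and 2007 with RG3039, 808 and 818 with DMSO and 2443 and 3189 with the combination (-1.06 ± 0.17, adjusted p = 0.00856). The death receptor gene TNFRSF10B differed by -0.99 ± 0.20. SAT1 lost its call without decitabine replicate 1 or RG3039 replicate 1 (adjusted p = 0.052 to 0.0536). NINJ1 lost its call without either decitabine library or RG3039 replicate 2 (adjusted p = 0.0548 to 0.0709). TNFRSF10B lost its call without either decitabine library, either RG3039 library or combination replicate 2 (adjusted p = 0.0504 to 0.157).

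In the BCL2 family, 2 of 18 genes were higher with RG3039 and none with decitabine by limma (5 and 2 at an unadjusted p under 0.05, median -0.30). Besides BBC3 this was BCL2A1, an antiapoptotic member, at 1049.8 and 904 against 491 and 495. BCL2 itself was at 2722 and 2668 with decitabine, 1917 and 1961 with RG3039, 3825 and 3432 with DMSO and 1266 and 1343 with the combination and was not called (0.47 ± 0.14, adjusted p = 0.0911). Of 30 NF-kB and inflammatory genes, 2 were higher with RG3039 and none with decitabine (6 and 0 at an unadjusted p under 0.05, median -0.26). TNF was at 592 and 605 with decitabine, 1165 and 1214 with RG3039, 577 and 652 with DMSO and 1112 and 1283 with the combination (-0.99 ± 0.17, adjusted p = 0.0112), and the neutrophil chemokine CXCL8 at 507 and 376 with decitabine, 1114 and 799 with RG3039, 231 and 256 with DMSO and 1287 and 1466 with the combination (-1.11 ± 0.23, adjusted p = 0.0269). BCL2A1 and TNF lost their calls without either decitabine library or either RG3039 library (adjusted p = 0.0617 to 0.138). CXCL8 lost its call without either decitabine library, either RG3039 library or either combination library (adjusted p = 0.0513 to 0.186).

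The genes that handle decitabine itself differed at 2 points. CDA, cytidine deaminase, which inactivates decitabine, was at 705 and 844 with decitabine, 2082 and 2353 with RG3039, 379 and 471 with DMSO and 3155 and 3828 with the combination (-1.52 ± 0.19, adjusted p = 0.00265; chr1:20588948-20618908). Each RG3039 library was more than 2-fold above each decitabine library, decitabine was above DMSO, and the combination was highest. DCTD, the deoxycytidylate deaminase, was at 260.3 and 205 with decitabine, 569 and 457 with RG3039, 399 and 476 with DMSO and 375 and 313 with the combination (-1.14 ± 0.24, adjusted p = 0.0264), with decitabine lowest. DCK, the kinase that activates decitabine, was at 497 and 397 and 469 and 429, with overlapping values (-0.01 ± 0.20, adjusted p = 0.986). Of 18 uptake and metabolism genes, these 2 were called, both toward RG3039, and none was called toward decitabine by limma (3 and 0 at an unadjusted p under 0.05). DCTD lost its call without either decitabine library or either RG3039 library (adjusted p = 0.066 to 0.175).

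The drugs' targets were not called. DNMT1, the maintenance methyltransferase that decitabine traps, was at 13058 and 9427 with decitabine, 9522 and 6551 with RG3039, 13815 and 11548 with DMSO and 4843 and 5966 with the combination, and the single-drug values overlapped (0.49 ± 0.22, adjusted p = 0.272). The de novo enzymes DNMT3A and DNMT3B differed by 0.39 ± 0.25, adjusted p = 0.451, and 0.87 ± 0.37, adjusted p = 0.247, and UHRF1, which guides DNMT1 to replicated DNA, by 0.06 ± 0.17, adjusted p = 0.906. DCPS, the target of RG3039, was at 1100.2 and 865 with decitabine and 966 and 659.7 with RG3039 (0.29 ± 0.27, adjusted p = 0.639), also with overlap. These are mRNA levels, and neither protein amount nor enzyme activity was measured. Of 21 DNA methylation genes, 0 were called by limma, with 2 toward decitabine and 0 toward RG3039 at an unadjusted p under 0.05.

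Of 67 tested genes of mRNA decapping and decay, 2 were called in each direction, near the 2.67% and 1.92% of all genes (median -0.12). CNOT6, a deadenylase of the CCR4-NOT complex, was at 1568 and 1656 with decitabine, 4045 and 3577 with RG3039, 1175 and 1365 with DMSO and 3192 and 3709 with the combination (-1.24 ± 0.16, adjusted p = 0.00287), with the 4 libraries given RG3039 above the 4 without it. EXOSC6, a ring subunit of the RNA exosome, was at 3008 and 3379 with RG3039 against 1772 and 1864 (-0.81 ± 0.14, adjusted p = 0.0112). The exosome degrades mRNA in the 3′ to 5′ direction that yields the cap substrate of DcpS. Toward decitabine, the decapping cofactor gene DCP1B was at 161 and 141 against 54.3 and 55.2 and the scaffold gene CNOT1 at 5958 and 5656 against 4171 and 3533. In the spliceosome list, also near the background, 2 of 71 were higher with RG3039 and none with decitabine (10 and 1 at an unadjusted p under 0.05, median -0.12). They were SNRPB2, -0.76 ± 0.15, and SF3B5, -0.58 ± 0.14. EXOSC6 lost its call without either decitabine library or RG3039 replicate 2 (adjusted p = 0.0553 to 0.0893). DCP1B lost its call without either decitabine library, either RG3039 library, either combination library or DMSO replicate 2 (adjusted p = 0.0505 to 0.168). CNOT1 and SF3B5 lost their calls without either decitabine library, either RG3039 library or either combination library (adjusted p = 0.0878 to 0.244). SNRPB2 lost its call without decitabine replicate 1 or either RG3039 library (adjusted p = 0.115 to 0.136).

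Metal-binding genes leaned to RG3039, though both drugs were above DMSO for the 2 family members given here by value. MTF1, the zinc-sensing factor that drives metallothionein genes, was at 1196 and 1259 with decitabine, 2757 and 2939.8 with RG3039, 1286 and 1059.7 with DMSO and 2941 and 3216 with the combination (-1.21 ± 0.15, adjusted p = 0.00312). MT1X was at 1374 and 1404 with decitabine, 2326 and 2534 with RG3039, 880.4 and 889 with DMSO and 3084 and 4247 with the combination (-0.81 ± 0.17, adjusted p = 0.0321), and MT1G at 2764 and 2821 with decitabine, 3696 and 3910.2 with RG3039, 659 and 907 with DMSO and 4177 and 5174 with the combination, which was not called (-0.45 ± 0.18, adjusted p = 0.223). Of 10 genes in the list 2 were higher with RG3039 and none with decitabine by limma (4 and 0 at an unadjusted p under 0.05), with a median of -0.47 and 9 of 10 differences negative. MT1 genes are near-identical and their levels uncertain. The MT1X promoter (chr16:56682220-56682519, plus strand, GRCh38.p14, 26 CpG) is shown because metallothionein promoters bind MTF1, with its 4 matches to the metal response motif (TGCACNC or TGCGCNC, either strand) in capitals. At least 1 match was present in 38.5% of all matched promoters, so such a match is common. MT1X lost its call without either decitabine library or either RG3039 library (adjusted p = 0.123 to 0.162).
MT1X: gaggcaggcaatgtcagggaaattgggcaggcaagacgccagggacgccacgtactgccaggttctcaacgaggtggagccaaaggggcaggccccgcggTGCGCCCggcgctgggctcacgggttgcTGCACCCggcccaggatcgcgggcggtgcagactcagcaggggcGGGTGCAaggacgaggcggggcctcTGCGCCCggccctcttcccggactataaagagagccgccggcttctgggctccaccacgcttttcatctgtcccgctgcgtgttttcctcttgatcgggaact

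Other motifs are given as the share of promoters that hold them, in genes higher with RG3039, in genes higher with decitabine and in all 10466. The AP-1 motif TGANTCA was in 8.5% of the 200 promoters of genes higher with RG3039 (17), 4.19% of the 334 of genes higher with decitabine (14) and 4.50% of all. The M-box TCACGTGA, which contains the E-box CACGTG, was in 2.5% (5), 0.299% (1) and 1.88%. The cyclic AMP response motif TGACGTCA was in 3.0%, 1.5% and 3.17%, the E-box in 8.0%, 8.08% and 10.1%, and the EGR motif GCGTGGGCG in 1.0%, 1.2% and 1.32%. The metal response motif was in 34.5%, 39.2% and 38.5%, the PU.1 motif GAGGAAGT in 2.0%, 2.99% and 2.61%, the antioxidant response motif TGACNNNGC in 16.5%, 15.3% and 15.2%, and the heat shock element in 0%, 0.299% and 0.315%. Both strands were searched, nothing was tested, and a match is not a binding site.

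Long non-coding genes made up 73 of the 335 annotated genes higher with RG3039 (21.8%), 33 of 464 higher with decitabine (7.11%) and 15.9% of all tested. Among intergenic ones (lincRNA), 37 of 1207 tested were higher with RG3039 and 14 with decitabine, and among those annotated as sense intronic 8 of 209 and 1. AC015871.3 (chr15:79920195-79922455) was, of the sense intronic genes named, the one that kept its call without each library, at 35.1 and 27.0 with decitabine, 336 and 278 with RG3039, 22.7 and 33.2 with DMSO and 368 and 339.8 with the combination (-3.27 ± 0.34, adjusted p = 0.0013), with the 4 libraries given RG3039 far above the other 4. AL442067.1 was at 72.6 and 84.4 against 9.44 and 1.04, and AC090181.2 at 59.1 and 45.4 against 4.05 and 0. Of the 8, 6 lie in a protein-coding host gene on the same strand that was itself tested. The 6 hosts, among them ST20, RAP2A and TSPAN3, had a median difference of 0.07, and limma called 0 of them in either direction. Without counts by strand or exon, these transcripts cannot be told apart from unspliced host RNA. AL442067.1 lost its call without decitabine replicate 2, either RG3039 library or either combination library (adjusted p = 0.0604 to 0.143). AC090181.2 lost its call without decitabine replicate 2 or either RG3039 library (adjusted p = 0.0983 to 0.154).

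Other intergenic or clone-named genes higher with RG3039 had low values. AC068338.2 was at 71.2 and 63.7 against 4.05 and 7.27, AL451050.2 at 30.9 and 50.1 against 2.70 and 0, AL137060.3 at 41.7 and 46.2 against 1.35 and 3.12 and AL844908.1 at 60.5 and 50.9 against 2.70 and 5.20. The pseudogene SLC9A7P1 was at 6.74 and 11.4 with decitabine, 96.7 and 105 with RG3039, 5.30 and 7.55 with DMSO and 193 and 180.4 with the combination (-3.38 ± 0.49, adjusted p = 0.00559). SNORA81, a small nucleolar RNA, was listed at 0 in both decitabine libraries and at 34.9 and 17.5 with RG3039, 18.2 and 27.2 with DMSO and 56.6 and 37.2 with the combination. Here decitabine, and not RG3039, stood apart. AC068338.2 lost its call without decitabine replicate 1 or either RG3039 library (adjusted p = 0.0571 to 0.0825). AL451050.2 lost its call without decitabine replicate 2, either RG3039 library or either combination library (adjusted p = 0.0517 to 0.15). AL137060.3 and AL844908.1 lost their calls without either decitabine library, either RG3039 library or either combination library (adjusted p = 0.06 to 0.173). SLC9A7P1 lost its call without RG3039 replicate 2 (adjusted p = 0.0523). SNORA81 lost its call without RG3039 replicate 1 (adjusted p = 0.0796).

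Protein-coding genes with the widest differences toward RG3039 were mostly of low value. KRT81, a hair keratin, was at 12.1 and 9.35 with decitabine, 113 and 150.4 with RG3039, 6.05 and 3.02 with DMSO and 359 and 412 with the combination (-3.49 ± 0.48, adjusted p = 0.00404), and its near-identical neighbour KRT86 at 59.1 and 52.5 against 1.35 and 8.31. HSF2BP, which binds heat shock factor 2 and acts in meiotic recombination, was at 27.0 and 33.7 with decitabine, 344 and 222 with RG3039, 21.7 and 16.4 with DMSO and 143 and 237 with the combination (-3.15 ± 0.41, adjusted p = 0.0035). HSPB6, a small heat shock protein and the 1 of 32 heat shock genes called, was at 55.1 and 109 against 8.09 and 3.12. FHDC1, a formin, was at 82.1 and 58.7 against 6.76 and 3.12, and CYSRT1 at 41.6 and 51.4 against 3.34 and 4.42. GAA, the lysosomal α-glucosidase, was at 29.2 and 38.6 with decitabine, 218 and 193 with RG3039, 14.7 and 23.9 with DMSO and 261 and 205 with the combination (-2.57 ± 0.38, adjusted p = 0.00605), while ASAH1, the lysosomal ceramidase, was higher with decitabine, at 2742 and 3022 against 1745 and 1427. KRT86 lost its call without decitabine replicate 1, either RG3039 library or either combination library (adjusted p = 0.0893 to 0.204). HSPB6 and CYSRT1 lost their calls without either decitabine library, either RG3039 library or either combination library (adjusted p = 0.0508 to 0.168). FHDC1 lost its call without decitabine replicate 2 or either RG3039 library (adjusted p = 0.0746 to 0.128). GAA lost its call without RG3039 replicate 1 (adjusted p = 0.0553). ASAH1 lost its call without either decitabine library or RG3039 replicate 2 (adjusted p = 0.0587 to 0.106).

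Single members of further lists were called. AKAP12, a scaffold for protein kinase A, was higher with decitabine, at 47.0 and 53.7 against 0 and 1.94 and 0 in both DMSO libraries. LMNA, which encodes lamin A, was higher with RG3039, at 2562 and 2469.6 against 1309 and 1455. TKT, transketolase of the pentose phosphate pathway, was at 27123 and 30049 with RG3039 against 16832 and 19736, and TXNIP, an inhibitor of thioredoxin, was higher with decitabine at 9931 and 9131 against 6191 and 4870.4. IGF2R, the mannose 6-phosphate receptor, was at 3027 and 2931 with RG3039 against 2011 and 1908. PLAGL1, the 1 of 31 imprinted genes called, was higher with decitabine at 249 and 230.2 against 69.2 and 28.6, with DMSO at 256 and 377. NDUFB5, of complex I, was the 1 of 71 respiratory chain genes called, at 1563 and 1325 with decitabine against 863 and 703. Both drugs were below DMSO for NDUFB5 (1911 and 1877), and the combination was at 611 and 579. GNLY, the cytotoxic granule protein granulysin, was at 151 and 218 with decitabine against 18.8 and 20.6. AKAP12 lost its call without either decitabine library (adjusted p = 0.0669 to 0.0784). LMNA lost its call without decitabine replicate 1 or either RG3039 library (adjusted p = 0.0702 to 0.0867). TKT, IGF2R and GNLY lost their calls without either decitabine library, either RG3039 library or either combination library (adjusted p = 0.0579 to 0.193). TXNIP and PLAGL1 lost their calls without either decitabine library or RG3039 replicate 2 (adjusted p = 0.0616 to 0.125). NDUFB5 lost its call without either decitabine library or either RG3039 library (adjusted p = 0.0524 to 0.132).

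Core growth programmes gave no call between the drugs. limma called 0 of 79 ribosomal protein genes (2 toward decitabine and 0 toward RG3039 at an unadjusted p under 0.05), 0 of 60 ribosome biogenesis genes (1 and 1), 0 of 20 aminoacyl-tRNA synthetase genes (1 and 2) and 0 of 45 mitosis genes (0 and 9). It called 0 of 34 cholesterol and fatty acid synthesis genes (4 and 4), 0 of 21 G1 cyclin and CDK inhibitor genes (2 and 2) and 0 of 14 SMN and Gemin genes (1 and 1). Medians of these lists ran from -0.23 (mitosis) to 0.10 (ribosomal proteins). The median standard error of these lists was 0.15 to 0.21 on the log2 scale, against 0.32 over all tested genes. KIF4A, a mitotic kinesin, was at 1997 and 2239 with decitabine and 3315 and 3124 with RG3039 (-0.61 ± 0.16, adjusted p = 0.0703), and LARS1, the leucyl-tRNA synthetase, at 7761 and 9019 with decitabine and 6148 and 5509 with RG3039 (0.52 ± 0.13, adjusted p = 0.0597). For both genes the values of the drugs did not overlap.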

How the data were processed

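The table the authors deposited gives a normalised signal, in reads, for 60240 genes listed by Ensembl identifier, from QuantSeq 3′ libraries that count tags near transcript ends. STAR, Salmon 1.2.1, featureCounts, limma and DESeq2 are named in the submitters' processing notes, on hg38. The step that made the values and the strand setting are not given in the sources used here. All 8 libraries had the same median ratio of 1.01 to the per-gene geometric mean. Low values were whole multiples of a step in 97.5% to 98.1% of cases for genes with 1 transcript, but in 74.4% to 80.8% over all genes (tolerance 0.02, up to 20.5 reads), so no count test was run, and depth was estimated from the step.

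Values were taken as log2(value + 1), and group means were fitted to all 8 libraries in limma 3.58.1 under R 4.3.3, with eBayes moderation that follows the mean-variance trend, and tested two-sided for decitabine minus RG3039 (4 residual and 5.51 prior degrees of freedom). Benjamini-Hochberg adjustment ran over the 17534 genes with a mean of at least 10, and 3291 had an unadjusted p under 0.05. Tests on simulated data gave more false calls than nominal where each gene was given its own moderated spread from these data. The share of false calls among the called genes may therefore exceed the nominal one. The labels do not say whether replicate numbers mark shared plates or days, and the samples were not treated as pairs. Coordinates are from GENCODE 29 (58064 identifiers found), promoters from RefSeq (GRCh38.p14). No fold change is printed for a gene at 0 in both libraries of a compared drug. Such genes still count, through the added 1, in the medians, the 8-fold counts and the ranking of named genes.

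The comparison, the 42 gene lists (1479 symbols, 1473 matched, 1280 tested) and the rule for named genes were chosen with earlier results of these data known. The rule takes, among called genes with a mean of at least 20 and no overlap between the drugs, the 15 with the largest difference in each direction, from each list the 4 genes with the lowest p, and the drugs' target and metabolism genes (DNMT1, DNMT3A, DNMT3B, UHRF1, DCPS, CDA and DCK). It gave 185 genes, of which 104 were called and 38 kept their call without each library. The other 32 called list members were added after their values were seen, and 2 of these kept their call throughout. XIST and Y-linked genes were left out. One called gene is not reported here. Alternatives were TMM and quantile scaling, pseudocounts of 0.5 and 5, other filters, robust or untrended eBayes, only the groups compared, testing against a 1.5-fold change, dropping each library in turn, and a replicate block. Python 3.11.15, pandas 2.3.3, numpy 2.4.6 and matplotlib 3.10.9 were used.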

Additional observations from a re-analysis of the deposited data

How the results depend on the processing

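Counts are given as all genes called, then those higher with decitabine and with RG3039, beside 806, 469 and 337. With 2 libraries a drug, the count rested on the spread estimate: eBayes without the trend gave 427, 289 and 138, a fit of only the groups compared gave 408, 255 and 153, and a test against a 1.5-fold change gave 169, 124 and 45. Leaving out 1 library at a time gave 283 to 887, 143 to 502 and 83 to 385, lowest without a single-drug library and highest without a DMSO library. The arm left with 1 sample was then assumed to vary like the other groups. The other settings (TMM scaling 800, quantile scaling 905, pseudocount 0.5 767 and 5 888, no filter 603, mean of at least 50 787, robust eBayes 907) stayed within 1.5 times. Same-numbered libraries of the drugs deviated together with a correlation of 0.049 (-0.077 to 0.161 over the 6 pairs of groups), so the numbers were not taken as pairs, and the fit with the replicate block called 973, 538 and 435. The decitabine share of calls was 58.2%, 54.5% to 60.4% under the scalings, and 50.5% (without decitabine replicate 2) to 73.4% (1.5-fold test) over all settings. Without an RG3039 library it was 71.1% and 71.7%, and without the trend 67.7%. Of the 104 named genes that were called, 0 changed direction under any setting. Uncalled genes with a difference near 0 could: DCK (-0.01 ± 0.20) turned positive without decitabine replicate 2, with 497 against 469 and 429. With TMM scaling 786 of the 806 called genes were shared, and with quantile scaling 745. With a median standard error of 0.32 over all tested genes, differences well under 2-fold were mostly not detectable. The causes of the changes in count were not tested.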
